A study of Mus musculus with 10 samples.

Results

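The ErbB system is read here through 10 genes, the 4 receptor genes Egfr, Erbb2, Erbb3 and Erbb4 and the 6 ligand genes Egf, Hbegf, Tgfa, Ereg, Btc and Nrg1. They were taken by name from the 21994 mouse genes tested, each through the probe set that carries only that gene's symbol and has the highest mean signal over all arrays. All 10 had a value and no filter on dim genes was applied. Each of 5 Ezh2-/- and 5 Ezh2+/+ whole mammary tumours, flash frozen, had its RNA read on 1 Affymetrix Mouse Gene 2.0 ST array. The comparison asks how expression differs in tumours that formed without Ezh2.

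Both genotypes were female Tet-ON PyVmT mice of the FVB strain, in which an MMTV-driven tetracycline activator turns on polyomavirus middle T together with Cre recombinase once doxycycline is given in the drinking water. All tumours therefore shared the oncogene, Cre and doxycycline, and were taken at the endpoint of tumour burden. The study reports a later tumour onset in Ezh2-deficient mice, so age and time on doxycycline may differ between the genotypes. Their part in the values cannot be told apart from that of genotype. The Ezh2-/- mice carried 2 conditional Ezh2 alleles that Cre removes, and the Ezh2+/+ mice carried wild-type alleles. The MMTV promoter is active in the mammary epithelium, so fibroblasts, vessels and immune cells within an Ezh2-/- tumour keep the gene. The spread behind each p-value is that between tumours, and the sources used here leave unsaid whether any mouse gave more than 1.

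ErbB receptors are tyrosine kinases of the cell surface that act in pairs. Ligand binding to EGFR, ERBB3 or ERBB4 exposes an arm through which the receptors dimerise, whereas ERBB2 has no known ligand of its own and is the preferred partner of the others, and ERBB3 has little kinase activity and passes the signal on through its docking sites for PI3K. EGF, TGFA and amphiregulin bind EGFR, HBEGF, epiregulin and betacellulin bind EGFR and ERBB4, and neuregulin 1 binds ERBB3 and ERBB4. Most ligands are made as membrane proteins and are released by metalloproteases. In the mammary gland EGFR signalling supports the growth of ducts and ERBB4 the development of alveoli, and ERBB2 is amplified in a share of human breast cancers. PyVmT itself binds Src kinases, Shc and PI3K, which lie downstream of the same receptors.

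Ezh2 encodes the methyltransferase of PRC2, a complex that in mammals is known for marking promoters rich in CG dinucleotides. The 250 bases before the start of Erbb2 and Egfr are therefore shown, the receptor genes whose means differed most between the genotypes. The sequences are from RefSeq on GRCm38.p6 and run 5′ to 3′ on the gene's strand, with each CG in capitals.
Erbb2, chr11:98412234-98412483, plus strand: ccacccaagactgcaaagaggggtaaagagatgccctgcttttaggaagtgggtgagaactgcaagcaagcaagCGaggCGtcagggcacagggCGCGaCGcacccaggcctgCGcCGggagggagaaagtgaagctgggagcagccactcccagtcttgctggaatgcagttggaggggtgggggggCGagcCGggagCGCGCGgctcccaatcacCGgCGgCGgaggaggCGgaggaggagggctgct
Egfr, chr11:16751953-16752202, plus strand: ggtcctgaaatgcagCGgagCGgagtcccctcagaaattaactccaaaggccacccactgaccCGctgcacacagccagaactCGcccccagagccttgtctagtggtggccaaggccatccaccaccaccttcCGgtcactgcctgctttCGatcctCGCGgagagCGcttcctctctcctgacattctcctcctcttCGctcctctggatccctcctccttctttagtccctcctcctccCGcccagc
The Erbb2 window held 16 CG, more than 74.6% of the 32851 windows of this length in the table, and the Egfr window held 11, more than 64.4%. The median window held 6. Of the other members whose windows were counted, Tgfa had 19, Erbb4 12 and Btc 4, and Egf, which has 2 start sites in the table, had 0 and 15. No window was counted for Erbb3, Hbegf, Ereg and Nrg1. These are counts of letters and no mark on chromatin was measured on the arrays.

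The targeted gene set the genotypes apart. Ezh2 was at 6.46, 6.36, 6.38, 6.42 and 6.50 on the log2 scale in Ezh2-/- tumours 1 to 5, against 7.63, 7.66, 6.98, 7.69 and 7.33 in Ezh2+/+ tumours 1 to 5. All Ezh2-/- tumours lay below all Ezh2+/+ tumours, with a log2 fold change of -1.03 (SE 0.14, adjusted p = 0.000778 from limma). Whether the probes lie in the deleted part of Ezh2 is not known here. A gene is called higher or lower in Ezh2-/- tumours where the adjusted p from limma was under 0.05, which held for 1607 genes (7.31%) on the higher and 1635 (7.43%) on the lower side. Array medians lay between 4.35 and 4.46 for Ezh2-/- and between 4.54 and 4.67 for Ezh2+/+ tumours. Centring the arrays on them gave a median of 0.20 over the fold changes of all genes (log2), against 0.03 on the deposited scale, and the counts became 5210 higher and 904 lower. In Ezh2-/- tumours 1 and 5 the 10 skeletal muscle markers averaged 8.92 and 7.72, against 4.47 to 5.28 in all other tumours.

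Among the 10 receptor and ligand genes, 1 was lower in Ezh2-/- tumours, Ereg, 0 were higher and 9 did not pass. Over all genes 7.43% were lower and 7.31% higher, so a count of 1 lower gene in 10 is close to the background. At an unadjusted p under 0.05 from limma there were 3 of 10, with Egfr and Erbb2 on the higher side, against 33.4% of all genes. The methods' own test, which asks for a fold change over 1.5 and an unadjusted p under 0.05, called 1 member higher, Erbb2, against 4.81% of all genes, and 0 lower, against 4.23%. All 4 receptors had a positive log2 fold change, with Erbb4 so close to 0 that its sign turned when arrays were centred on the tested genes, and their median was 0.39. The 6 ligands had a median of -0.25, with 4 negative values, and the sign of Egf turned after median centring.

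The receptors Egfr and Erbb2 had the highest fold changes of the 10 genes, and neither passed. Egfr, the receptor of EGF and TGFA, was at 7.37, 7.69, 7.76, 7.88 and 7.11 in Ezh2-/- tumours 1 to 5, against 7.62, 7.29, 6.99, 6.72 and 6.43 in Ezh2+/+ tumours 1 to 5. Ezh2-/- tumours 2, 3 and 4 lay above all Ezh2+/+ tumours, and Ezh2-/- tumours 1 and 5 lay within their range. The mean was 7.56 ± 0.32 in Ezh2-/- tumours and 7.01 ± 0.47 in Ezh2+/+ tumours (SD, n = 5 each), with a log2 fold change of 0.55 (95% interval 0.08 to 1.02, adjusted p = 0.0992 from limma). The gene passed without Ezh2+/+ tumour 1, the highest of its genotype (0.70, adjusted p = 0.0379). It also passed after median centring (0.73, adjusted p = 0.0402) and with array weights (0.62, adjusted p = 0.0392). After quantile normalization (0.35, adjusted p = 0.273 from limma) and cyclic loess (0.35, adjusted p = 0.272) the fold change was smaller and did not pass. Without Ezh2+/+ tumour 5 it was 0.41 (adjusted p = 0.22).

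Erbb2, the receptor without a ligand of its own, was at 7.17, 7.87, 7.49, 7.49 and 6.68 in Ezh2-/- tumours 1 to 5, against 6.84, 6.91, 6.73, 7.09 and 6.12 in Ezh2+/+ tumours 1 to 5. Here 4 of 5 Ezh2-/- tumours lay above all Ezh2+/+ tumours, and tumour 5 lay among them. The mean was 7.34 ± 0.44 in Ezh2-/- tumours and 6.74 ± 0.37 in Ezh2+/+ tumours (SD, n = 5 each). The log2 fold change was 0.60, which is 1.52-fold (95% interval 0.12 to 1.08, adjusted p = 0.0829 from limma). The call turned on the fit, since Erbb2 passed without Ezh2-/- tumour 5 (0.77, adjusted p = 0.0216), after median centring (0.78, adjusted p = 0.0348) and with array weights (0.65, adjusted p = 0.0326). After quantile normalization (0.38, adjusted p = 0.234 from limma) and cyclic loess (0.39, adjusted p = 0.204) the fold change was smaller and did not pass. Without Ezh2+/+ tumour 5 it was 0.45 (adjusted p = 0.183).

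Erbb3, the neuregulin receptor, was at 8.26, 8.78, 8.94, 8.80 and 7.69 in Ezh2-/- tumours 1 to 5, against 8.17, 8.66, 8.52, 8.41 and 7.59 in Ezh2+/+ tumours 1 to 5. Ezh2-/- tumours 2, 3 and 4 stood above the highest Ezh2+/+ tumour by less than the spread within either genotype. The log2 fold change was 0.23 (95% interval -0.32 to 0.77, adjusted p = 0.556 from limma), an interval that includes rises as large as those of Egfr and Erbb2. Erbb4, the other neuregulin receptor, was at 3.77, 3.54, 3.26, 3.51 and 3.20 in Ezh2-/- tumours 1 to 5, against 3.34, 3.28, 3.56, 3.35 and 3.61 in Ezh2+/+ tumours 1 to 5. The genotypes were mixed, with Ezh2-/- tumours holding both the highest and the lowest value, and the log2 fold change was 0.03 (95% interval -0.24 to 0.31, adjusted p = 0.886 from limma). The signal was dim, with a mean above that of only 18.9% of genes, and whether Erbb4 was expressed in these tumours was not tested.

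**Figure D1:**
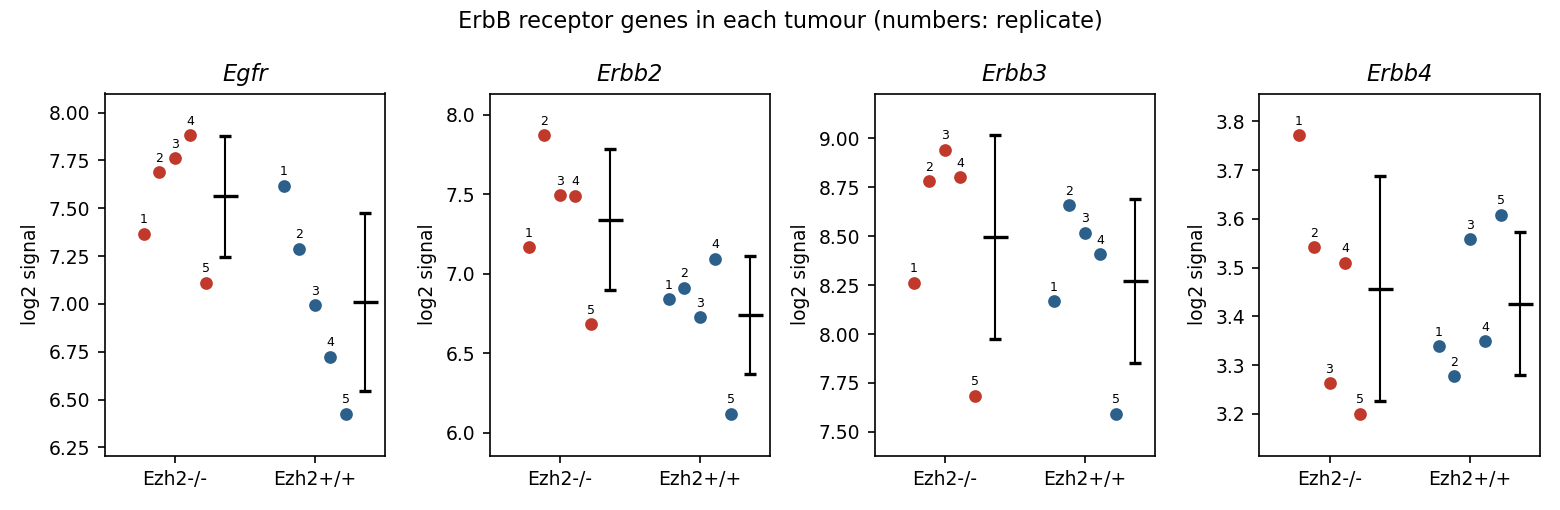
Log2 signal of the 4 ErbB receptor genes (vertical axis) in 5 Ezh2-/- tumours (left, red) and 5 Ezh2+/+ tumours (right, blue), with the replicate number at each point and the mean and SD as a bar at the side. For Erbb2, 4 of 5 Ezh2-/- tumours lie above all Ezh2+/+ tumours, and replicate 5 is the lowest of both genotypes for Egfr, Erbb2 and Erbb3.

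Egfr, Erbb2 and Erbb3 shared their lowest tumours. Replicate 5 was the lowest of its genotype for all 3 genes, in Ezh2-/- and in Ezh2+/+ tumours alike. The same tumours were the lowest in the mean of 15 luminal epithelium markers, which was 8.10, 8.24, 8.25, 8.15 and 7.85 in Ezh2-/- tumours 1 to 5, against 8.08, 8.06, 8.07, 8.02 and 7.85 in Ezh2+/+ tumours 1 to 5. This low was not particular to luminal markers. The mean of 35 adaptor and signalling genes was also lowest in tumour 5, at 7.24 in Ezh2-/- and 6.93 in Ezh2+/+ tumours. So were the means of the shedding, inhibitor and ERK target genes read below. The mean of 7 genes beside Erbb2 was instead highest in tumour 5 of each genotype, at 6.44 and 5.97, but its genes differed. Tcap was at 6.72 and 6.57 in Ezh2-/- tumours 1 and 5, both with skeletal muscle signal. It was highest among Ezh2+/+ tumours in tumour 5, at 5.79. Grb7 was lowest in Ezh2+/+ tumour 5, at 6.46. The part of epithelial content in the receptor values was not tested, and in bulk tumours fewer cells of a type and less RNA per cell cannot be told apart. With all tumours the luminal mean overlapped, at 7.85 to 8.25 in Ezh2-/- tumours, against 7.85 to 8.08 in Ezh2+/+ tumours. Apart from tumour 5, a cut made after seeing the data, it was 8.10 to 8.25 in Ezh2-/- tumours, against 8.02 to 8.08 in Ezh2+/+ tumours. The highest tumours were not shared, since Ezh2-/- tumour 4 was the highest for Egfr, tumour 2 for Erbb2 and tumour 3 for Erbb3. When both Ezh2-/- tumours with skeletal muscle signal were left out, a choice made after seeing the data, Egfr (0.77, adjusted p = 0.0447) and Erbb2 (0.88, adjusted p = 0.0179) passed.

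**Figure D2:**
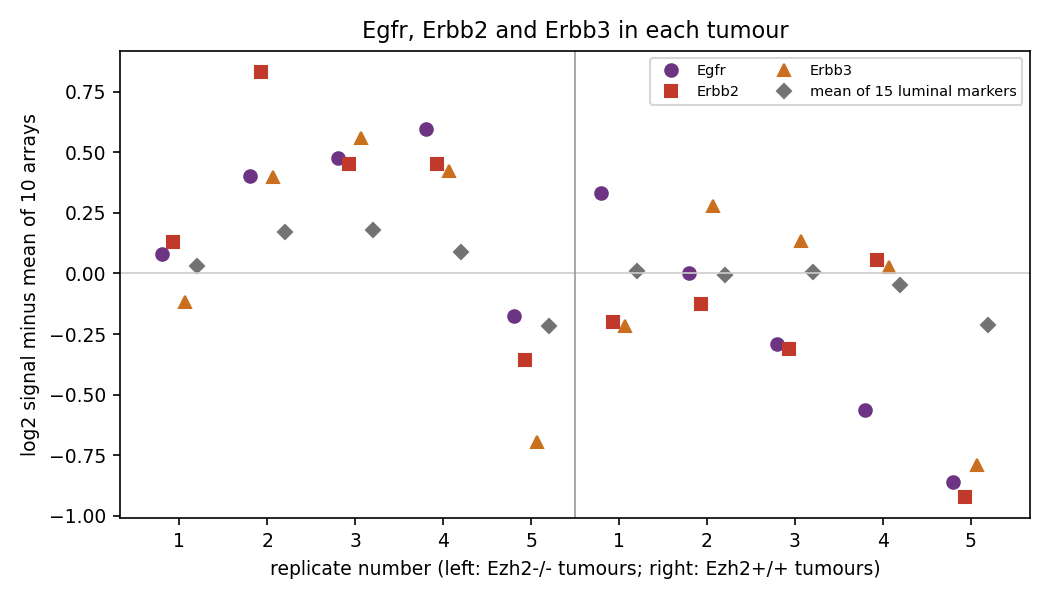
Log2 signal of Egfr, Erbb2 and Erbb3 and the mean of 15 luminal markers in each tumour, given as the difference from the mean of the 10 arrays (vertical axis), with the replicate number on the horizontal axis, Ezh2-/- tumours on the left and Ezh2+/+ tumours on the right. All 4 series are lowest in replicate 5 of each genotype.

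Since Erbb2 is often co-amplified with the genes beside it in human breast cancer, its neighbours were read in the same tumours. In the RefSeq order the protein-coding genes are Ppp1r1b, Stard3, Tcap, Pnmt, Pgap3, Erbb2, Mien1, Grb7 and Ikzf3. Of 7 measured neighbours 0 passed in either direction by limma and 0 had an unadjusted p under 0.05, against 33.4% of all genes, and their median log2 fold change was 0.18. Pgap3, which remodels GPI anchors, was at 6.74, 7.21, 6.75, 6.61 and 6.73 in Ezh2-/- tumours 1 to 5, against 6.44, 6.42, 6.29, 6.88 and 6.54 in Ezh2+/+ tumours 1 to 5 (log2 fold change 0.30, adjusted p = 0.161 from limma), and it passed after median centring (0.47, adjusted p = 0.035). Grb7, an adaptor that binds ERBB2, was at 7.09, 7.67, 7.05, 7.05 and 7.17 in Ezh2-/- tumours 1 to 5, against 7.12, 7.12, 6.98, 7.13 and 6.46 in Ezh2+/+ tumours 1 to 5 (log2 fold change 0.25, adjusted p = 0.304 from limma). Erbb2, Pgap3 and Grb7 were all highest in Ezh2-/- tumour 2, and Erbb2 and Grb7 were both lowest in Ezh2+/+ tumour 5. Stard3 and Mien1, chosen after their values were seen, were highest in Ezh2-/- tumour 5, at 6.77 and 9.45, where Erbb2 was the lowest of its genotype. Copy number was not measured on these arrays.

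Of the ligands, Ereg was lower in Ezh2-/- tumours. Ereg encodes epiregulin, a ligand of EGFR and ERBB4, and was at 4.27, 4.33, 4.59, 4.26 and 4.55 in Ezh2-/- tumours 1 to 5, against 4.70, 4.66, 5.03, 4.90 and 4.96 in Ezh2+/+ tumours 1 to 5. All Ezh2-/- tumours lay below all Ezh2+/+ tumours, with 4.59 as the highest Ezh2-/- value and 4.66 as the lowest Ezh2+/+ value. Over all genes 6.56% were lower without overlap and 5.08% higher. The mean was 4.40 ± 0.16 in Ezh2-/- tumours and 4.85 ± 0.17 in Ezh2+/+ tumours (SD, n = 5 each), with a log2 fold change of -0.45, or 1.37-fold lower (SE 0.12, adjusted p = 0.0243 from limma). The fold change was below the study's threshold of 1.5.

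The call for Ereg was not firm. The signal was dim, with a mean above that of only 41.0% of genes. The Ezh2-/- mean of 4.40 lay within the array medians of that genotype, 4.35 to 4.46. The Ezh2+/+ mean of 4.85 lay above those of its own, 4.54 to 4.67. Lower calls over all genes fell from 1635 to 511 without the 40% dimmest genes. Ereg, just above that cut, kept its call there. Whether its fall differed from that of genes of like signal was not tested. A further probe set that carries only the symbol Ereg overlapped between the genotypes, at 4.15 to 4.39 in Ezh2-/- tumours, against 4.24 to 4.89 in Ezh2+/+ tumours, with a log2 fold change of -0.30 (adjusted p = 0.124 from limma over all probe sets). After median centring Ereg was at -0.28 (adjusted p = 0.0689). Without single tumours the direction held in all 10 fits and the call in 5, and it was lost without Ezh2-/- tumours 1 (adjusted p = 0.0571), 2 (0.0574) or 4 (0.065) and without Ezh2+/+ tumours 3 (0.0554) or 5 (0.0581).

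Btc, the gene of betacellulin, lies in the same ligand cluster as Ereg. It was at 5.06, 5.58, 5.32, 4.86 and 5.00 in Ezh2-/- tumours 1 to 5, against 5.51, 4.98, 4.90, 4.91 and 4.64 in Ezh2+/+ tumours 1 to 5. One tumour of each genotype, Ezh2-/- tumour 2 and Ezh2+/+ tumour 1, stood at the top, and the log2 fold change was 0.18 (95% interval -0.20 to 0.55, adjusted p = 0.50 from limma). In the RefSeq order the cluster holds Epgn, Ereg, Areg and Btc. Areg was not analysed here. Epgn, the gene of epigen, another ligand of EGFR, was at 3.94, 4.17, 4.05, 3.57 and 4.45 in Ezh2-/- tumours 1 to 5, against 4.53, 4.10, 4.41, 4.82 and 4.58 in Ezh2+/+ tumours 1 to 5. In this gene 3 of 5 Ezh2-/- tumours lay below all Ezh2+/+ tumours. Its log2 fold change was -0.45 (95% interval -0.82 to -0.08, adjusted p = 0.0877 from limma), and it passed without Ezh2-/- tumour 5 (-0.55, adjusted p = 0.0341) or Ezh2+/+ tumour 2 (-0.55, adjusted p = 0.0491) and with array weights (-0.52, adjusted p = 0.042).

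Tgfa, which encodes transforming growth factor alpha, was at 6.15, 6.40, 6.30, 6.59 and 6.08 in Ezh2-/- tumours 1 to 5, against 5.86, 6.23, 5.58, 6.72 and 5.58 in Ezh2+/+ tumours 1 to 5. The Ezh2-/- tumours spanned 0.52 and all lay within the range of the Ezh2+/+ tumours, which spanned 1.14. The log2 fold change was 0.31 (95% interval -0.13 to 0.75, adjusted p = 0.307 from limma). Hbegf, which encodes heparin-binding EGF, was at 5.91, 6.23, 5.84, 5.78 and 5.98 in Ezh2-/- tumours 1 to 5, against 5.90, 6.60, 5.98, 7.08 and 5.98 in Ezh2+/+ tumours 1 to 5. Ezh2+/+ tumours 2 and 4 were the highest of their genotype for Hbegf and for Tgfa, and the other 3 Ezh2+/+ tumours lay within the range of the Ezh2-/- tumours for Hbegf. Its log2 fold change was -0.36 (95% interval -0.82 to 0.10, adjusted p = 0.248 from limma).

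Egf was at 4.77, 4.16, 4.42, 4.40 and 4.71 in Ezh2-/- tumours 1 to 5, against 4.24, 4.29, 5.52, 4.61 and 4.57 in Ezh2+/+ tumours 1 to 5. Ezh2+/+ tumour 3 stood above all others, and the log2 fold change of -0.15 (95% interval -0.63 to 0.32, adjusted p = 0.654 from limma) became 0.07 without it. A probe set annotated both to Egf and to 6330410L21Rik, a noncoding gene, was at 2.82 to 3.15 in Ezh2-/- tumours, against 3.44 to 3.73 in Ezh2+/+ tumours, without overlap (log2 fold change -0.63, adjusted p = 0.00241 from limma over all probe sets). Over all genes 6.56% were lower without overlap, and all values of this probe set lay below the lowest array median of 4.35. With 2 symbols its signal cannot be assigned to Egf.

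Nrg1, the neuregulin gene, was even across the Ezh2-/- tumours and uneven across the Ezh2+/+ tumours. It was at 5.06, 5.02, 5.22, 5.15 and 5.15 in Ezh2-/- tumours 1 to 5, against 6.27, 6.26, 4.51, 5.31 and 4.98 in Ezh2+/+ tumours 1 to 5. The Ezh2-/- tumours spanned 0.20 and the Ezh2+/+ tumours 1.76, with tumours 1 and 2 at the top and tumour 3 at the bottom. The difference in spread was not tested. The log2 fold change was -0.34 (95% interval -0.98 to 0.29, adjusted p = 0.430 from limma).

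The other neuregulin genes did not pass. Nrg3 was at 4.13 to 4.57 in Ezh2-/- tumours, against 4.30 to 4.85 in Ezh2+/+ tumours (log2 fold change -0.25, adjusted p = 0.201 from limma). Nrg2 was at 5.72 to 6.39 in Ezh2-/- tumours, against 5.69 to 6.52 in Ezh2+/+ tumours, and Nrg4 at 4.06 to 4.69 in Ezh2-/- tumours, against 4.31 to 4.74 in Ezh2+/+ tumours. Their log2 fold changes were -0.10 and -0.06, signs that turned after median centring.

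**Figure D3:**
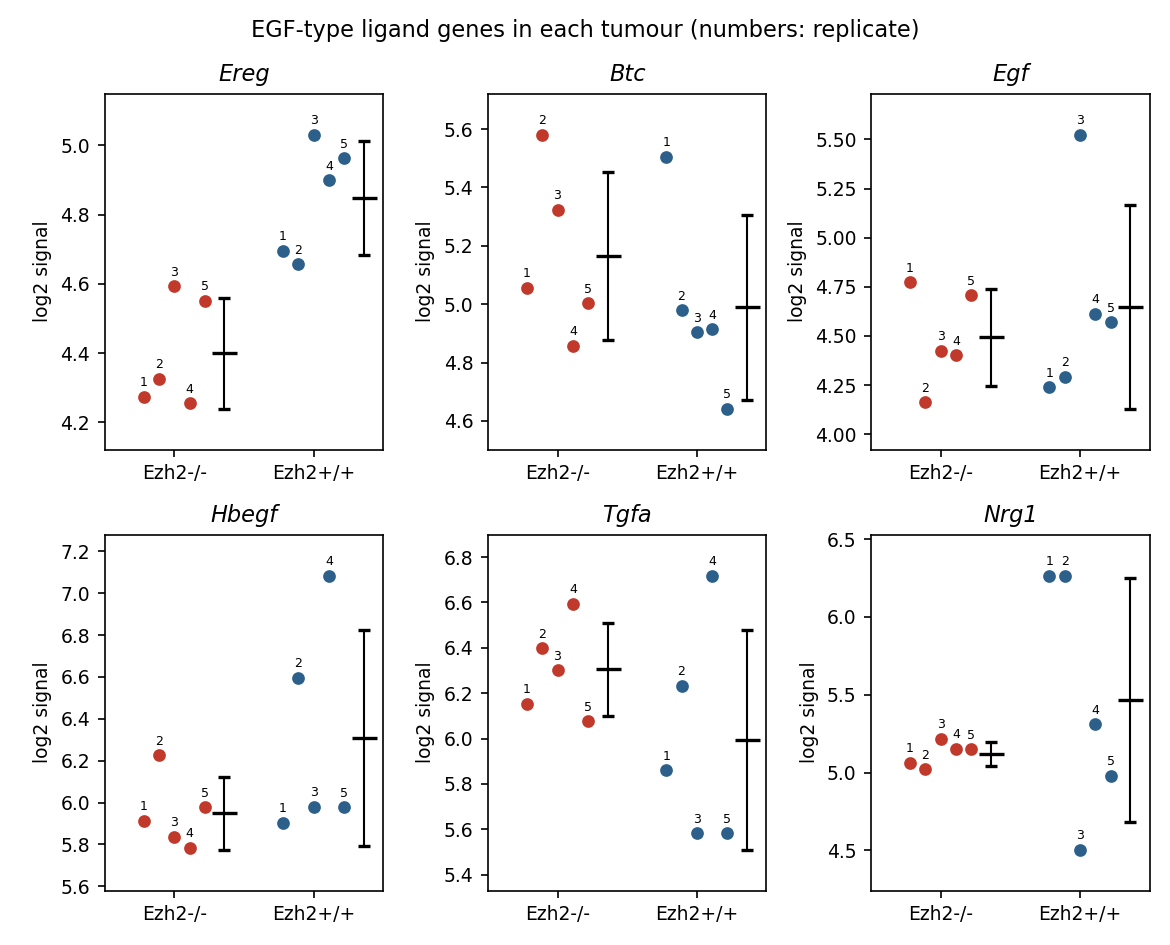
Log2 signal of the 6 ligand genes (vertical axis) in 5 Ezh2-/- tumours (left, red) and 5 Ezh2+/+ tumours (right, blue), with the replicate number at each point and the mean and SD as a bar at the side. Ereg is the gene without overlap, and Nrg1 spans 0.20 in Ezh2-/- tumours and 1.76 in Ezh2+/+ tumours.

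**Figure D4:**
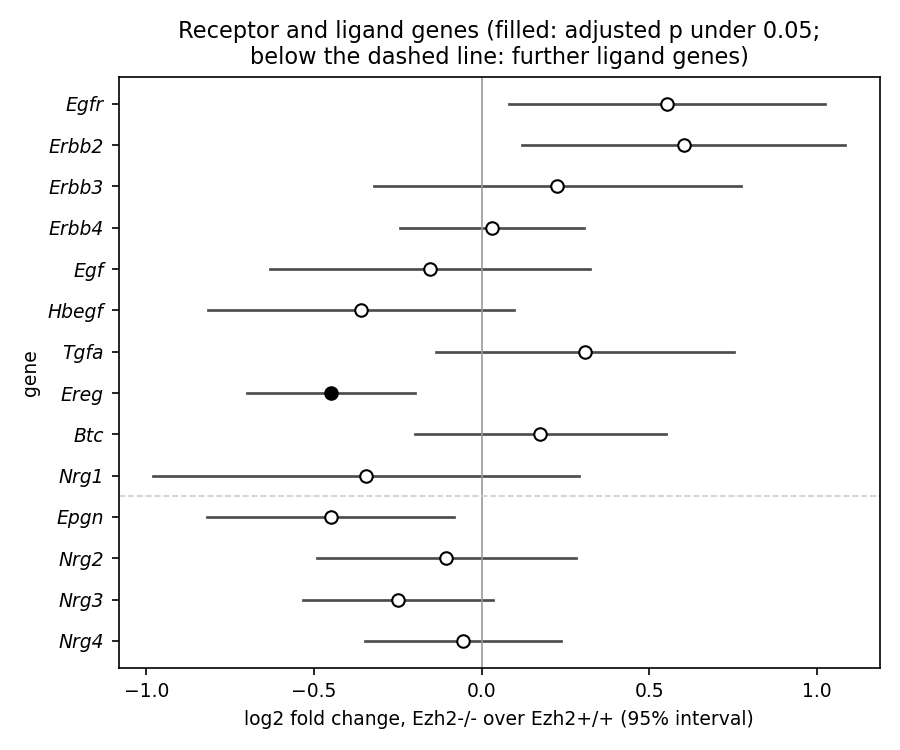
Log2 fold change of Ezh2-/- over Ezh2+/+ tumours (horizontal axis) with its 95% interval from limma, for the 10 receptor and ligand genes and 4 further ligand genes below the dashed line. Filled points have an adjusted p under 0.05, which holds for Ereg at -0.45, and the intervals of Egfr, Erbb2 and Epgn exclude 0 without an adjusted p under 0.05.

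Around the receptors and ligands, 101 genes of 6 pathway lists were measured, of which 13 were higher and 0 lower in Ezh2-/- tumours by limma. Over all genes 7.31% were higher and 7.43% lower. This background changed with signal. Without the 40% dimmest genes, lower calls over all genes fell from 1635 to 511. The share of calls that were higher rose from 49.6% to 73.2%, and the pathway counts stayed at 13 and 0. The lack of lower and the count of higher pathway genes are therefore both less unusual among brighter genes. A comparison with genes of like signal was not tested. The lists are described by their counts and medians, and the median of all genes was 0.03, or 0.15 without the 40% dimmest genes.

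Genes that process or carry the ligands held 4 higher and 0 lower of 14 measured, with a median of 0.22. The higher share was 28.6%, against 7.31% of all genes. Rhbdf1, an inactive rhomboid that brings the protease ADAM17 to the cell surface, was at 8.03, 8.13, 8.05, 8.13 and 7.64 in Ezh2-/- tumours 1 to 5, against 7.38, 7.43, 7.35, 7.68 and 7.11 in Ezh2+/+ tumours 1 to 5. Only Ezh2-/- tumour 5 fell within the Ezh2+/+ range, just under Ezh2+/+ tumour 4 (log2 fold change 0.61, adjusted p = 0.0118 from limma). Bace1, the beta-secretase that cuts neuregulin 1, was at 6.90, 7.24, 7.12, 7.25 and 6.61 in Ezh2-/- tumours 1 to 5, against 6.58, 6.38, 6.30, 6.45 and 5.79 in Ezh2+/+ tumours 1 to 5. Its groups did not overlap (0.72, adjusted p = 0.0157), which held on the higher side for 5.08% of all genes. Rhbdf1 and Bace1 passed under all 13 alternatives and in all 10 fits without a single tumour. The metalloprotease genes Adam15 (0.57, adjusted p = 0.0124) and Adam19 (0.56, adjusted p = 0.0307) also rose, and both lost the call when a gene's probe sets were averaged, with Adam15 at 0.18 and Adam19 at 0.38. Adam15 also lost it after quantile normalization (0.37, adjusted p = 0.0566) and cyclic loess (0.38, adjusted p = 0.0528), and Adam19 with the adjusted form of the methods' own test (0.0669). Adam19 also lost it without Ezh2-/- tumours 1 or 4 and without Ezh2+/+ tumours 4 or 5 (adjusted p 0.0638 to 0.0774).

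Inhibitors and turnover factors of the receptors held 2 higher and 0 lower of 22 measured, with a median of 0.25. The higher share of 9.09% was close to the 7.31% of all genes. Lrig3, listed here only as a relative of the ErbB inhibitor LRIG1, was at 6.22, 5.94, 6.30, 6.20 and 5.52 in Ezh2-/- tumours 1 to 5, against 4.83, 5.64, 4.30, 5.43 and 4.89 in Ezh2+/+ tumours 1 to 5. Only Ezh2-/- tumour 5 lay within the Ezh2+/+ range (log2 fold change 1.02, adjusted p = 0.0159 from limma). Lrig1, whose product promotes ErbB degradation, was at 7.16 to 7.50 in Ezh2-/- tumours, against 6.07 to 7.19 in Ezh2+/+ tumours (0.72, adjusted p = 0.037). The Lrig1 call was lost in 7 fits without a single tumour, those of Ezh2-/- tumours 1 to 4 and of Ezh2+/+ tumours 1, 3 and 5 (adjusted p 0.0602 to 0.0822), and both genes lost it under the methods' own test with adjustment (Lrig3 0.0571, Lrig1 0.0915). Lrig1 also lost it after quantile normalization (0.50, adjusted p = 0.106) and cyclic loess (0.50, adjusted p = 0.0961).

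Adaptors and cytoplasmic signalling genes held 6 higher and 0 lower of 35 measured, with a median of 0.35, and 7 listed genes were not analysed here. The higher share was 17.1%, against 7.31% of all genes. The 4 with the smallest p did not overlap between the genotypes, but a choice by p favours such genes. Over all genes 5.08% were higher without overlap. Araf, a kinase of the RAF family, was at 8.10 to 8.33 in Ezh2-/- tumours, against 7.61 to 7.81 in Ezh2+/+ tumours (log2 fold change 0.47, adjusted p = 0.00858 from limma). Pik3r2, a regulatory subunit of PI3K, was at 6.37 to 6.74 in Ezh2-/- tumours, against 5.80 to 6.30 in Ezh2+/+ tumours (0.48, adjusted p = 0.0209), and Pik3cd, the PI3K subunit best known from leukocytes, at 4.98 to 5.26 in Ezh2-/- tumours, against 4.55 to 4.90 in Ezh2+/+ tumours (0.39, adjusted p = 0.0241). Crkl, an adaptor with SH2 and SH3 domains, was at 7.09 to 7.40 in Ezh2-/- tumours, against 6.49 to 6.98 in Ezh2+/+ tumours (0.42, adjusted p = 0.0351). After quantile normalization Araf (0.30, adjusted p = 0.0718), Pik3r2 (0.24, adjusted p = 0.166) and Crkl (0.19, adjusted p = 0.227) did not pass, nor after cyclic loess (adjusted p 0.0589, 0.119 and 0.18). Without single tumours Crkl was lost in 6 fits (Ezh2-/- 1 to 4, Ezh2+/+ 3 and 5, adjusted p 0.0503 to 0.0796), Pik3cd without Ezh2-/- tumour 3 (0.0544) and Pik3r2 without Ezh2-/- tumour 4 (0.0504).

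Feedback and target genes of the ERK pathway held 1 higher and 0 lower of 20 measured, with a median of 0.20, and 4 of 20 had an unadjusted p under 0.05, against 33.4% of all genes. The higher gene was Spred3, of a family that restrains RAS signalling, at 5.54 to 5.79 in Ezh2-/- tumours, against 4.89 to 5.56 in Ezh2+/+ tumours (log2 fold change 0.44, adjusted p = 0.0361 from limma). It lost the call after quantile normalization (0.33, adjusted p = 0.152), after cyclic loess (0.33, adjusted p = 0.101), with the adjusted form of the methods' own test (0.0577) and in 6 fits without a single tumour (Ezh2-/- 2, 3 and 4 and Ezh2+/+ 2, 3 and 5, adjusted p 0.0618 to 0.0847).

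The number of higher pathway genes moved with the scaling and with single tumours. It was 5 after quantile normalization, 5 after cyclic loess and 34 after median centring. It was 30 without Ezh2-/- tumour 5, and 8, 8, 7 and 6 without Ezh2-/- tumours 1, 2, 3 and 4, against 7 without Ezh2+/+ tumour 5.

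**Figure D5:**
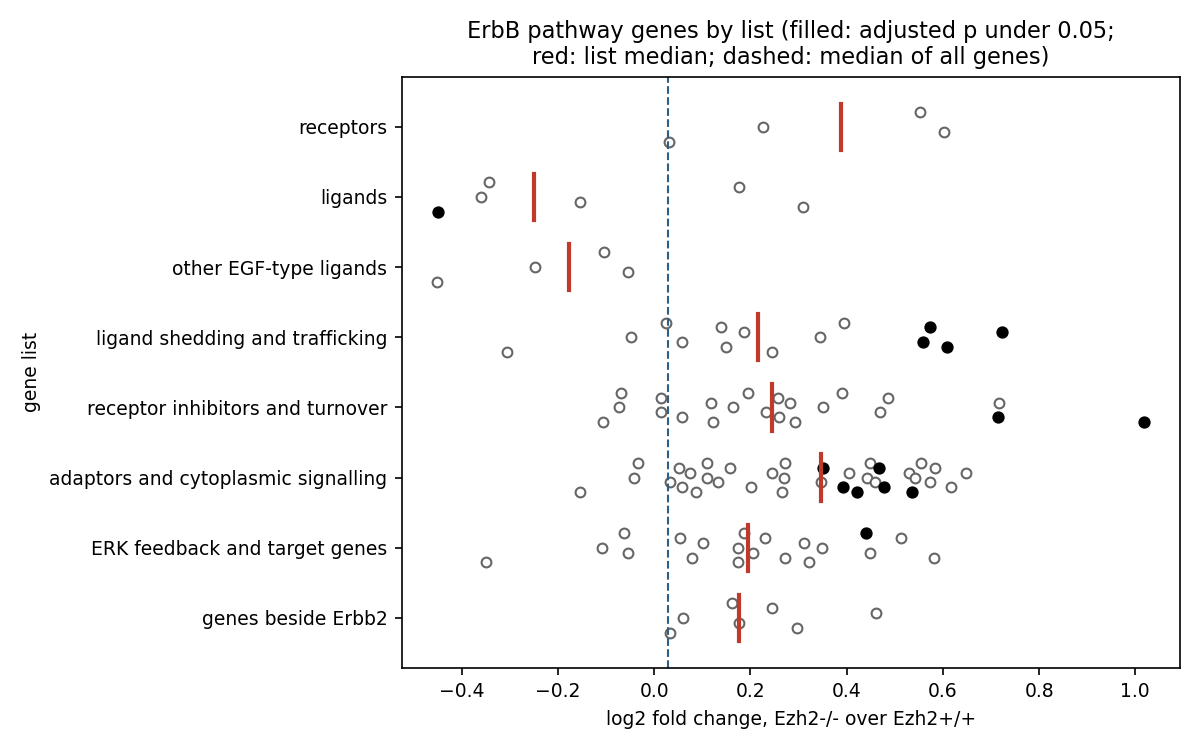
Log2 fold change of Ezh2-/- over Ezh2+/+ tumours (horizontal axis) for each measured gene of the receptors, the ligands and 6 pathway lists, with filled points at an adjusted p under 0.05 from limma, the list median in red and the median of all genes dashed. The receptors have a median of 0.39 and the ligands one of -0.25, and filled points lie on the higher side in the lists of shedding, inhibitors, adaptors and ERK targets.

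Several ErbB genes are expressed by stromal and immune cells as well as by epithelium, and markers of such cells differed between the genotypes. Of 12 fibroblast markers 8 were higher in Ezh2-/- tumours, their mean level lay between 7.24 and 8.43 in Ezh2-/- and between 5.69 and 7.10 in Ezh2+/+ tumours, and the collagen genes Col3a1 and Col1a1 rose by 2.13 and 1.90 on the log2 scale. Of 10 endothelial markers 7 were higher (6.14 to 6.68 in Ezh2-/- tumours, 5.45 to 5.90 in Ezh2+/+ tumours), among them the transcription factor gene Erg at 0.96 and the receptor gene Tek at 1.01. Of 10 macrophage markers 4 were higher (7.25 to 8.001 in Ezh2-/- tumours, 6.87 to 7.44 in Ezh2+/+ tumours), among them Csf1r at 0.92 and C1qc at 0.76. Of 6 T cell markers 3 were higher (5.12 to 6.68 in Ezh2-/- tumours, 4.69 to 5.00 in Ezh2+/+ tumours), among them Cd4 at 2.83-fold and Cd3e at 2.14-fold. The part of these cells in the values of Egfr, Erbb2, Ereg and the pathway genes was not tested.

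Of 15 luminal markers 1 was higher, Gata3 at 0.51, against 7.31% of all genes, and Esr1, the estrogen receptor gene, was at 0.56 without passing. Only 9 of the 15 had a positive log2 fold change, and the list median was 0.10. Of 9 basal and myoepithelial markers 1 was higher, Oxtr at 0.89, and Trp63 was at 0.54 without passing, with a list mean of 5.75 to 6.12 in Ezh2-/- tumours, against 5.38 to 6.16 in Ezh2+/+ tumours. A positive log2 fold change was found in 7 of these 9, with a list median of 0.10. Of 9 adipocyte markers 1 was higher, Pparg at 0.97, and Cidec was at 1.42 without passing (list mean 5.14 to 7.36 in Ezh2-/- tumours, 4.87 to 5.71 in Ezh2+/+ tumours). Of 10 skeletal muscle markers 0 passed by limma and 5 had an unadjusted p under 0.05, a level that 33.4% of all genes reached, with Myh1 at 1.24 and Acta1 at 2.00. Of 6 Schwann cell markers, listed because NRG1 acts on these cells, 0 passed by limma and 3 had an unadjusted p under 0.05, with Mbp and S100b both at 0.34 (list mean 5.05 to 5.17 in Ezh2-/- tumours, 4.57 to 5.00 in Ezh2+/+ tumours). Without single tumours Gata3 lost its call without Ezh2-/- tumours 2, 3 or 4 or Ezh2+/+ tumour 5 (adjusted p 0.0559 to 0.0632 from limma), Pparg without Ezh2-/- tumour 4 or Ezh2+/+ tumours 3, 4 or 5 (0.0525 to 0.0782) and Cd3e without Ezh2+/+ tumours 4 or 5 (0.0539 and 0.0544). C1qc, Cd3e and Oxtr also lost the call after quantile normalization (adjusted p 0.12, 0.0952 and 0.0972), after cyclic loess (0.109, 0.0908 and 0.0824) and with the adjusted form of the methods' own test (0.0577, 0.0785 and 0.101), C1qc without both tumours with muscle signal (0.0665), Gata3 after quantile normalization (0.0602) and Pparg with the adjusted form of the methods' own test (0.0906). Without single tumours, Oxtr kept it in only 3 of 10 fits, those without Ezh2-/- tumour 5 or Ezh2+/+ tumours 2 or 4. The mean of the 15 luminal markers overlapped between the genotypes, whereas that of the fibroblast, endothelial, T cell and Schwann cell markers did not.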

How the data were processed

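Total RNA of 5 Ezh2-/- and 5 Ezh2+/+ tumours had been hybridised to 1 array each. The authors turned the scans into normalized values per probe set with Affymetrix Expression Console and used Transcriptome Analysis Console for the comparison. The algorithm and log base are not given in the sources used here, and the deposited values, between 0.595 and 13.2, were read as log2. No 2 arrays were identical, and the number of arrays limits the precision.

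Of 41345 probe sets, 23521 had 1 gene symbol in the array's annotation, 1820 had several and 16004 were not listed there. Matching 23328 to RefSeq by Entrez ID gave 21994 genes, 1077 of them with more than 1 probe set, and the probe set with the highest mean was used. Genotypes were compared with limma 3.58.1 (R 4.3.3, default prior), with two-sided p-values adjusted over all genes by the Benjamini-Hochberg method, and the fit was tested on simulated data. No gene set test was run. Python 3.11.15 with matplotlib 3.10.9 drew the figures. Promoter windows came from RefSeq (GRCm38.p6). The array's build was not given in the sources used here.

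The members and the 6 pathway and 9 marker lists were chosen with earlier results of these data known. Named were all members, Ezh2, all measured further ligands, the genes that passed in each pathway list where at most 5 did (otherwise the 4 with the smallest p, or 2 where none passed), and the 2 of each marker list with the smallest p. Alternatives were the methods' own test with and without adjustment, array weights, a robust prior with a trend on intensity, 3 normalizations (quantile, median centring, cyclic loess), a filter on dim genes, averaged probe sets, all probe sets, leaving out each tumour and the replicate number as a block. Centring on the tested genes, leaving out both tumours with muscle signal, and the other probe sets of Ereg and Egf were added after seeing the data. Areg and some list genes were not analysed here, nor were the study's other experiments.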

Additional observations from a re-analysis of the deposited data

Results flagged for a closer look

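In 6 cases 1 tumour stood far from the other 4 of its genotype, measured as its gap to the nearest tumour over the whole range of the group. None of the 10 receptor and ligand genes was among them. The test was run on 92 groups of 5 tumours, and chance alone gives such a gap in about 1 of 20 groups. Beside Erbb2, Grb7 was at 7.67 in Ezh2-/- tumour 2, with the other Ezh2-/- tumours at 7.05 to 7.17, and at 6.46 in Ezh2+/+ tumour 5, with the other Ezh2+/+ tumours at 6.98 to 7.13. Pgap3, on the other side of Erbb2, was at 7.21 in Ezh2-/- tumour 2, with the others at 6.61 to 6.75. The adaptor gene Crkl was at 6.49 in Ezh2+/+ tumour 5, with the others at 6.95 to 6.98. Rhbdf1 was at 7.64 in Ezh2-/- tumour 5, with the others at 8.03 to 8.13. The adipocyte marker Pparg was at 3.78 in Ezh2+/+ tumour 3, with the others at 4.07 to 4.17.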

How the results depend on the processing

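Ezh2 stayed lower with an adjusted p under 0.05 in all 13 alternatives and in all 10 fits without a single tumour. Higher genes numbered 1607 and were 1058 under the methods' own thresholds, 846 under its test with adjustment, 2419 with array weights, 707 after quantile normalization, 5210 after median centring and 747 after cyclic loess. Lower genes numbered 1635 and were 930 under the methods' own thresholds, 1018 after quantile normalization, 904 after median centring, 1038 after cyclic loess and 511 without the 40% dimmest genes. The share of calls that were higher was 49.6%, against 41.0% after quantile normalization, 41.9% after cyclic loess, 85.2% after median centring, 36.1% after centring on the tested genes, 73.2% without the dimmest genes and 60.4% without both tumours with muscle signal.

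Members higher numbered 0 and were 1 under the methods' own thresholds, 2 with array weights, 2 after median centring and 2 without both tumours with muscle signal. Members lower numbered 1 and were 0 under the methods' own thresholds and after median centring. Higher pathway genes numbered 13 and were 6 under the methods' own thresholds, 7 under its test with adjustment, 25 with array weights, 5 after quantile normalization, 34 after median centring, 5 after cyclic loess and 28 without both tumours with muscle signal, and 1 was lower with array weights. Without single tumours, all genes higher ranged from 737 to 2507 and lower from 954 to 1871, members higher from 0 to 1 and lower from 0 to 1, and pathway genes higher from 6 to 30 and lower from 0 to 2. The lowest and the highest count of higher genes came without Ezh2-/- tumours 4 and 5.

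Signs turned in small values. Erbb4 was -0.0478 without Ezh2-/- tumour 1, -0.0064 without Ezh2+/+ tumour 2 and -0.0087 after centring on the tested genes, and ranged up to 0.095 without single tumours. Egf was 0.0192 after median centring, and ranged from -0.256 to 0.0655 (without Ezh2+/+ tumour 3) without single tumours. Nrg2 was 0.068 after median centring, and ranged from -0.213 to 0.0095 (without Ezh2+/+ tumour 1). Nrg4 was 0.0209 with array weights, 0.0331 after quantile normalization, 0.118 after median centring, 0.0385 after cyclic loess and 0.0059 without both tumours with muscle signal, and ranged from -0.111 to 0.0464 (without Ezh2-/- tumour 5). The causes were not tested.

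Same-numbered tumours deviated together with r from -0.04 to 0.34, and 3 of 5 pairs were over 0.1. The highest r of all pairs was that of the tumours numbered 5, and pairs with different numbers reached 0.18. The sources used here do not say that the numbers pair the tumours, and whether same-numbered tumours share a source of variation was not tested. With the replicate block, 2545 genes were higher, 1 member was higher (Erbb2, adjusted p = 0.0132) and 29 pathway genes were higher.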
